A study of Mus musculus with 6 samples.

Results

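The 9 genes described here encode the proteins that carry vitamin A into a cell, turn it into retinoic acid and bind the product: *Aldh1a1*, *Aldh1a2*, *Aldh1a3*, *Rdh10*, *Dhrs3*, *Crabp1*, *Crabp2*, *Rbp4* and *Stra6*. They were chosen by gene name, and all 9 were among the 34461 genes of a count table of whole mouse ovaries and among the 18959 genes that passed a filter on low counts. The study compared ovaries of 3 control mice with ovaries of 3 *Trim28cKO* mice, all 7 months old, by RNA-seq of polyadenylated RNA. *Trim28cKO* mice carried 2 floxed *Trim28* alleles (*Trim28flox/flox*) and the *Nr5a1:Cre* transgene, which acts in somatic cells of the gonad and not in germ cells, so that oocytes and other cells without the Cre kept *Trim28*. Control mice were either *Trim28flox/flox* without the Cre or *Trim28flox/+* with *Nr5a1:Cre*, and the sources used here do not say which control library had which genotype. All animals were on a mixed 129SV/C57BL6/J background. The labels give 3 mice and 3 libraries for each genotype, so 1 mouse per library was assumed.

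Retinol travels in blood bound to RBP4 and can enter a cell through the receptor STRA6. RDH10 oxidises retinol to retinal and DHRS3 carries out the reverse step, while ALDH1A1, ALDH1A2 and ALDH1A3 oxidise retinal to retinoic acid, a step that is not reversed. CRABP1 and CRABP2 bind retinoic acid in the cytosol, CYP26 enzymes break it down, and in the nucleus it acts through the receptors RAR and RXR. In the mouse gonad retinoic acid is known for its part in the entry of germ cells into meiosis, and in the adult testis Sertoli cells are one of its sources.

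Values are given in CPM, the counts of a gene relative to the TMM-scaled size of its library (counts per 1e6), in the order of replicates 1, 2 and 3. Groups were compared with the quasi-likelihood test of edgeR, and a gene rose or fell at a Benjamini-Hochberg adjusted p of at most 0.05 over all 18959 genes, with no limit on the fold change. Total counts ranged from 23615580 to 48508461 per library and were lowest in control replicate 2. *Trim28* stood at 155, 178 and 155 CPM in the controls and 48.8, 55.6 and 71.2 CPM in the *Trim28cKO* group (log2 fold change -1.47 ± 0.15 SE, edgeR adjusted p = 0.000663), lower in the group labelled as its deletion. The groups were separated on the first principal component (71.7% of the variance), and *Trim28cKO* replicate 1 lay apart from replicates 2 and 3 on the next component (10.5%). Scores on it were -49.8, 23.1 and 30.0 in *Trim28cKO* libraries. Control libraries were spread on it too, at 2.36, 30.4 and -36.1, with control replicate 3 on the side of *Trim28cKO* replicate 1. The groups also differed in the RNA of several cell types. All 10 Sertoli cell markers and all 10 macrophage markers rose and all 10 oocyte markers fell, and 5 of 10 granulosa cell markers fell. The Sertoli cell marker *Dmrt1*, with 1, 0 and 1 counts in control, reached the filter on low counts only in *Trim28cKO* libraries, so a fall was not open to it. Summed levels in control and *Trim28cKO* ovaries were 75.3 to 81.6 and 600 to 1237 CPM for Sertoli cell markers, 298 to 364 and 1988 to 3541 CPM for macrophage markers, and 2850 to 3552 and 2117 to 2392 CPM for granulosa cell markers. None of these markers was at 0 in all libraries, and the part of these cell types in the results on the 9 genes was not tested. In whole ovaries a change in the number of cells of a type and a change in RNA per cell cannot be told apart.

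In *Trim28cKO* ovaries 6 of the 9 genes rose (*Aldh1a1*, *Aldh1a2*, *Aldh1a3*, *Rdh10*, *Dhrs3* and *Crabp1*), *Crabp2* fell, and *Rbp4* and *Stra6* did not pass the test. *Crabp1* reached the filter on low counts only in its *Trim28cKO* libraries, so a fall was not open to it. It is counted among the genes that rose and among the separated genes below. Over all tested genes 20.2% were higher and 16.8% lower by the same rule. The median log2 fold change of the 9 genes was 0.80, and that of all tested genes was 0.00 (0.001). The 3 libraries of one group lay wholly above those of the other for 7 of the 9 genes, higher in *Trim28cKO* ovaries for 6 and lower for 1, where 52.8% of all tested genes were separated in either direction. Many genes changed in these ovaries, and the smallest p that an exact permutation test of 3 against 3 libraries can give is 0.1.

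**Figure D1:**
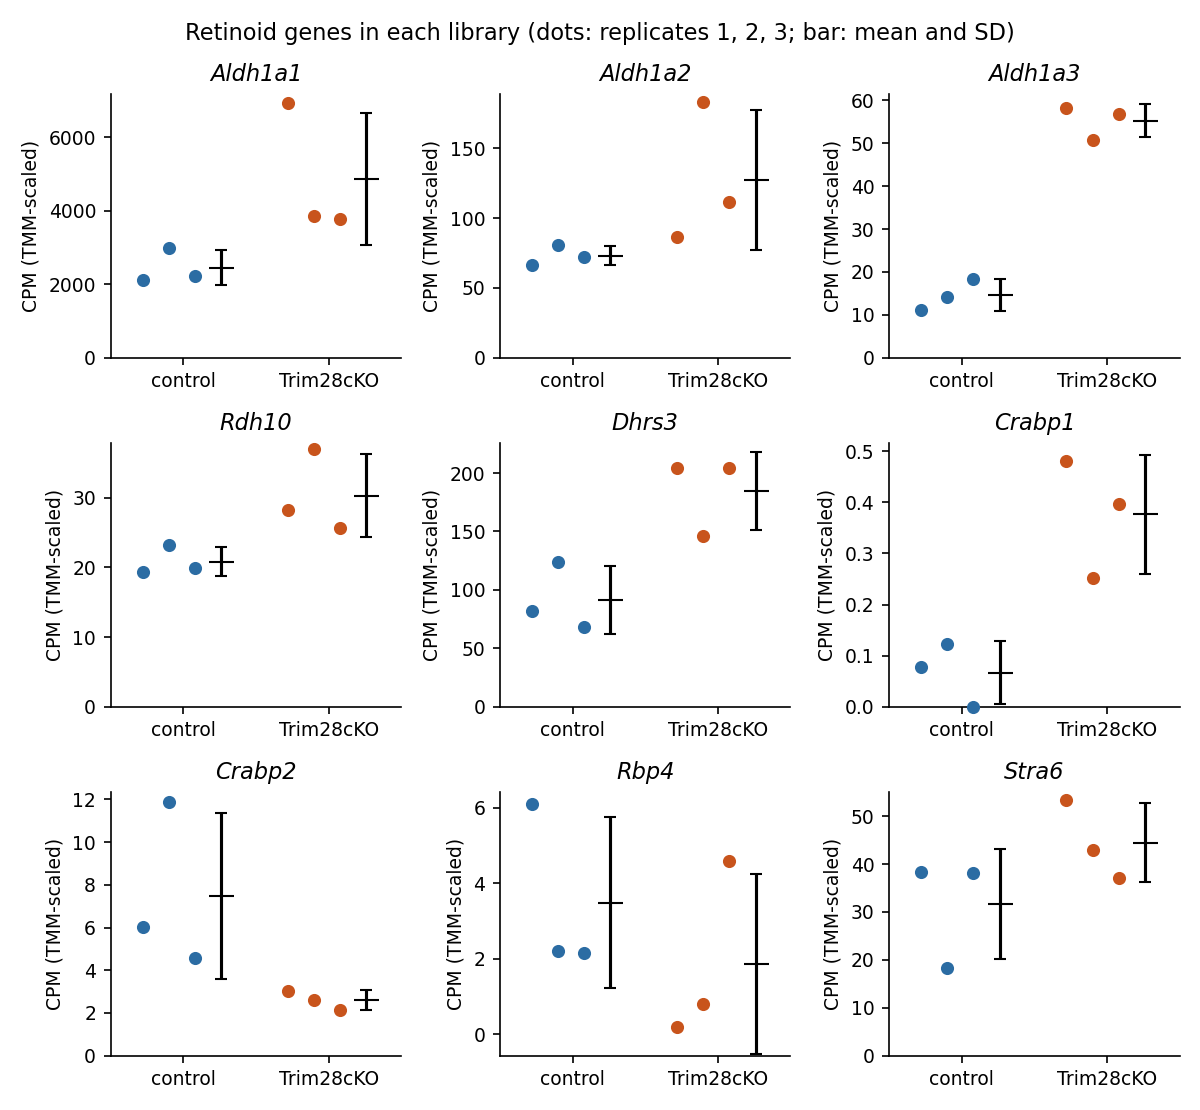
CPM (TMM-scaled, linear axes) of each of the 9 genes in the 3 control libraries (blue) and the 3 *Trim28cKO* libraries (orange), with the mean and SD of each group as a black bar. *Aldh1a3* shows the tightest separation, from 11.2 to 18.5 CPM in control and 50.9 to 58.3 CPM in *Trim28cKO* ovaries, while the groups of *Rbp4* and *Stra6* overlap.

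The 3 retinal dehydrogenase genes all rose, by different amounts. *Aldh1a3* (chromosome 7, 66390890 to 66427517 of mm10, minus strand) was at 11.2, 14.2 and 18.5 CPM in control and 58.3, 50.9 and 56.8 CPM in *Trim28cKO* ovaries. Every *Trim28cKO* library was well above every control library, and the *Trim28cKO* libraries differed little from each other. Its log2 fold change was 1.92 with a standard error of 0.19 (edgeR adjusted p = 0.000557), and *Aldh1a3* kept its call in all 13 alternative fits, between 1.76 and 2.12.

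*Aldh1a1* (chromosome 19, 20492715 to 20643462, plus strand) was by far the most abundant of the 9 genes. It was at 2119, 2997 and 2235 CPM in control and 6950, 3865 and 3789 CPM in *Trim28cKO* ovaries. The groups did not overlap, and the highest value was that of *Trim28cKO* replicate 1, which lay apart from the other *Trim28cKO* libraries on the next principal component. The log2 fold change was 0.99 with a standard error of 0.29 (edgeR adjusted p = 0.0322). Without *Trim28cKO* replicate 1 it was 0.64 and still passed, and the call was lost without control replicate 1 (0.90, edgeR adjusted p = 0.113) or control replicate 3 (0.93, edgeR adjusted p = 0.0980).

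*Aldh1a2* (chromosome 9, 71215789 to 71296243, plus strand) was at 66.5, 80.6 and 72.5 CPM in control and 86.9, 183 and 112 CPM in *Trim28cKO* ovaries. The lowest *Trim28cKO* library was only just above the highest control library, and replicate 2 was the highest. For *Aldh1a2* the log2 fold change was 0.80 with a standard error of 0.26 (edgeR adjusted p = 0.0484), close to the threshold, and the call was lost in 8 of 13 alternative fits, among them those without control replicates 1, 2 or 3 (0.73, 0.87 and 0.79) and without *Trim28cKO* replicate 2 (0.45, edgeR adjusted p = 0.0643) or replicate 3 (0.89). ALDH1A2 is known from the mesothelial cells that cover the ovary. Of 10 surface epithelium markers 6 rose and 2 fell. Their summed level was 229.6, 126.5 and 245.8 CPM in control and 407, 639 and 343 CPM in *Trim28cKO* ovaries. Among *Trim28cKO* libraries it was highest in replicate 2, as *Aldh1a2* was, but lowest in replicate 3, where *Aldh1a2* was lowest in replicate 1. Among control libraries the marker sum was lowest in replicate 2, where *Aldh1a2* was highest. The part of these cells in the *Aldh1a2* result was not tested.

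Levels can be compared between genes only per length, and for this the deposited signal was used, the counts divided by a size factor and by the median transcript length of the gene in kb. On this scale *Aldh1a1* made up 98.2% ± 0.265 (SD, n = 3) of the summed signal of the 3 genes in control and 97.7% ± 0.932 in *Trim28cKO* ovaries (exact permutation test, two-sided, p = 0.5). The difference was -0.50 percentage points, -1.01 points without *Trim28cKO* replicate 1 and -0.10 points without *Trim28cKO* replicate 2. The share of *Aldh1a3* was 0.465%, 0.419% and 0.724% in control and 0.741%, 1.14% and 1.31% in *Trim28cKO* ovaries (p = 0.1 in the same exact permutation test, the smallest possible). The share of *Aldh1a2* was 1.30%, 1.12% and 1.34% in control libraries. In *Trim28cKO* libraries it was 0.520%, 1.94% and 1.21%, on both sides of the control values, and the difference of means was -0.0282 percentage points (exact permutation p = 1.0) and turned to 0.324 points without *Trim28cKO* replicate 1 and to 0.0157 points without control replicate 3. The median transcript length of *Aldh1a1* is 955 bases, where its merged exons span 4937 bases, against 2264 bases by both measures for *Aldh1a2*. With the merged exon length the share of *Aldh1a1* was 93.2% in control and 92.8% in *Trim28cKO* ovaries, that of *Aldh1a2* 6.14% and 5.95%, and that of *Aldh1a3* 0.607% and 1.20%.

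*Aldh1a1* has a close copy on the same chromosome, *Aldh1a7* (chromosome 19, 20692953 to 20727562, minus strand), whose product is a related aldehyde dehydrogenase. *Aldh1a7* was at 6.10, 18.5 and 7.41 CPM in control and 79.0, 22.9 and 20.4 CPM in *Trim28cKO* ovaries, with the highest library of each group the same as for *Aldh1a1*. Its log2 fold change of 1.94 (standard error 0.65) did not pass (edgeR adjusted p = 0.0522), though the groups did not overlap. Of 13 alternative fits 3 passed, DESeq2 (1.94), without control replicate 2 (2.58) and without *Trim28cKO* replicate 3 (2.27), and without *Trim28cKO* replicate 1 the value was 1.03. The coding sequences of the pair are identical at 91.6% of aligned bases, where *Aldh1a1* and *Aldh1a2* share 68.4%, *Aldh1a1* and *Aldh1a3* 67.4%, and *Aldh1a2* and *Aldh1a3* 68.5%. The stretch from coding base 7 to 96 (GENCODE annotation of GRCm38) is shown for both genes because it lets a reader see how few bases tell a read of one from a read of the other, with the 7 bases that differ in capitals.
Aldh1a1: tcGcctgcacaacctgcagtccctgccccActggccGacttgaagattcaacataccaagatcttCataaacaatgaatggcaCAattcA
Aldh1a7: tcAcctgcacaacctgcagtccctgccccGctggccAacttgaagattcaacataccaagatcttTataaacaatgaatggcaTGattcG

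Of all 50-base stretches of *Aldh1a1* transcripts, the length of the reads, 3.06% (151 of 4934) also occur in *Aldh1a7*, and those are 7.49% of the stretches of *Aldh1a7*. Only uniquely aligned reads were counted, so such reads are missing from both genes. Reads with errors that were placed on the wrong copy cannot be seen in a count table, and the level of *Aldh1a7* is to that extent uncertain. *Aldh1a2*, *Rdh10*, *Dhrs3*, *Crabp1*, *Crabp2*, *Rbp4* and *Stra6* share no such stretch with another gene, and *Aldh1a3* shares 1.15%. Genes that overlap *Aldh1a1*, *Aldh1a2* or *Stra6* share no exonic base with them.

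*Dhrs3* and *Rdh10*, of the retinol and retinal step, both rose. *Dhrs3* (chromosome 4, 144892827 to 144928209, plus strand), which encodes the retinal reductase and is itself known to be induced by retinoic acid, was at 82.2, 124 and 67.9 CPM in control and 204, 146 and 204 CPM in *Trim28cKO* ovaries. The groups did not overlap, though the nearest libraries differed by less than the SD of the control group (29.1 CPM). The log2 fold change was 1.02 with a standard error of 0.24 (edgeR adjusted p = 0.0156), and of 13 alternative fits 1 ended the call, the one without control replicate 1 (0.95, edgeR adjusted p = 0.0624). *Rdh10* (chromosome 1, 16105774 to 16133734, plus strand), which encodes the retinol dehydrogenase of this step, was at 19.3, 23.2 and 20.0 CPM in control and 28.2, 37.0 and 25.6 CPM in *Trim28cKO* ovaries. All 3 *Trim28cKO* libraries were above the controls, with replicate 2 highest. Its log2 fold change of 0.54 (± 0.16 SE, edgeR adjusted p = 0.0381) was the smallest among the genes that rose. The call was lost without control replicate 1 (0.49), control replicate 3 (0.51), *Trim28cKO* replicate 1 (0.59) or *Trim28cKO* replicate 2 (0.38), with edgeR adjusted p from 0.0548 to 0.121.

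The binding protein genes moved in opposite directions. *Crabp1* (chromosome 9, 54764748 to 54773110, plus strand), whose product holds retinoic acid in the cytosol, was barely detected, with 3, 3 and 0 counts in control and 15, 11 and 19 counts in *Trim28cKO* libraries, or 0.0769, 0.122 and 0 CPM against 0.481, 0.251 and 0.397 CPM. All *Trim28cKO* libraries were above all control libraries, at a level of fewer than 20 reads each. *Crabp1* had a log2 fold change of 2.62 with a standard error of 0.79 (edgeR adjusted p = 0.0379), the highest of the 9 genes and also among the least precise. The call was lost without control replicate 1 (2.90), control replicate 3 (1.92), *Trim28cKO* replicate 1 (2.42) or *Trim28cKO* replicate 2 (2.84), with edgeR adjusted p from 0.0559 to 0.101, and without *Trim28cKO* replicate 3 the gene was not tested.

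*Crabp2* (chromosome 3, 87948666 to 87953376, plus strand), whose product carries retinoic acid to its nuclear receptors, was at 6.0, 11.9 and 4.56 CPM in control and 3.05, 2.63 and 2.13 CPM in *Trim28cKO* ovaries. It was the only one of the 9 genes with every *Trim28cKO* library below every control library. The log2 fold change was -1.52 with a standard error of 0.39 (edgeR adjusted p = 0.0202), and it was lost without *Trim28cKO* replicate 2 (-1.52, edgeR adjusted p = 0.0562) or replicate 3 (-1.39, edgeR adjusted p = 0.0630). Control replicate 2 was the highest library for *Crabp2*, and it was also the highest for the 10 oocyte markers. Their summed level was 357, 628 and 300 CPM in control and 63.1, 50.1 and 53.0 CPM in *Trim28cKO* ovaries. Without control replicate 2 the log2 fold change of *Crabp2* was -1.03 and still passed. Whether oocytes are the source of *Crabp2* reads was not tested.

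Their coding sequences are identical at 70.8% of aligned bases, with no identical run longer than 11 bases, so that 50-base reads tell the pair apart. The stretch from coding base 40 to 129 is shown because it lets a reader see how closely the differences lie, with the 28 bases that differ in capitals.
Crabp1: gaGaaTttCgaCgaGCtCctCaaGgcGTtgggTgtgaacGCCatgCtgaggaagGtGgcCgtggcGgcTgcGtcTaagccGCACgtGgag
Crabp2: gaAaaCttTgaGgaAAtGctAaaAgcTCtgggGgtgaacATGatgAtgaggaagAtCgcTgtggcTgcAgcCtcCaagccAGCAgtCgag

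In signal per kb *Crabp1* made up 1.25%, 1.01% and 0% of the sum of the pair in control and 13.5%, 8.66% and 15.6% in *Trim28cKO* ovaries (0.755% ± 0.665 and 12.6% ± 3.56, SD, n = 3, exact permutation p = 0.1, two-sided). *Crabp2* therefore stayed the larger part of the pair in every library, also with the merged exon length, where the share of *Crabp1* was 1.25% in control and 19.3% in *Trim28cKO* ovaries.

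The genes of retinol carriage and entry did not pass the test. *Stra6* (chromosome 9, 58063788 to 58153996, plus strand) was at 38.3, 18.3 and 38.2 CPM in control and 53.4, 43.0 and 37.1 CPM in *Trim28cKO* ovaries. The groups overlap, with control replicate 2 lowest. For *Stra6* the log2 fold change was 0.49 with a standard error of 0.29 (edgeR adjusted p = 0.224), and none of 13 alternative fits brought *Stra6* past the threshold (0.21 to 0.65).

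*Rbp4* (chromosome 19, 38116620 to 38125321, minus strand), the gene of the blood carrier, which liver and fat are known to secrete, was at 6.10, 2.20 and 2.15 CPM in control and 0.192, 0.799 and 4.58 CPM in *Trim28cKO* ovaries. The SD within each group was larger than the difference between the group means (log2 fold change -0.89 ± 0.98 SE, edgeR adjusted p = 0.509). Without *Trim28cKO* replicate 3 the log2 fold change was -2.76 and passed (edgeR adjusted p = 0.0414). *Adipoq*, the fat cell hormone adiponectin, named here after its values were seen, was at 16.8, 0.0817 and 0.155 CPM in control and 0.513, 13.7 and 37.6 CPM in *Trim28cKO* ovaries. The libraries in which *Rbp4* was highest in each group, control replicate 1 and *Trim28cKO* replicate 3, were those with the most *Adipoq* in their group. Other markers of the same list peaked elsewhere, *Plin1* of the lipid droplet coat in replicate 2 of both groups, the lipase gene *Lipe* in replicate 3 of both groups, and *Ucp1* of brown fat in control replicate 2 and *Trim28cKO* replicate 1. Of 8 adipocyte markers 7 were tested with edgeR and 0 passed (1 higher at an unadjusted p under 0.05, 1 higher by DESeq2 and 0 by limma-voom), and their summed level was 75.7 to 124 CPM in control and 76.6 to 194 CPM in *Trim28cKO* ovaries. The part of fat tissue in the *Rbp4* values was not tested.

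**Figure D2:**
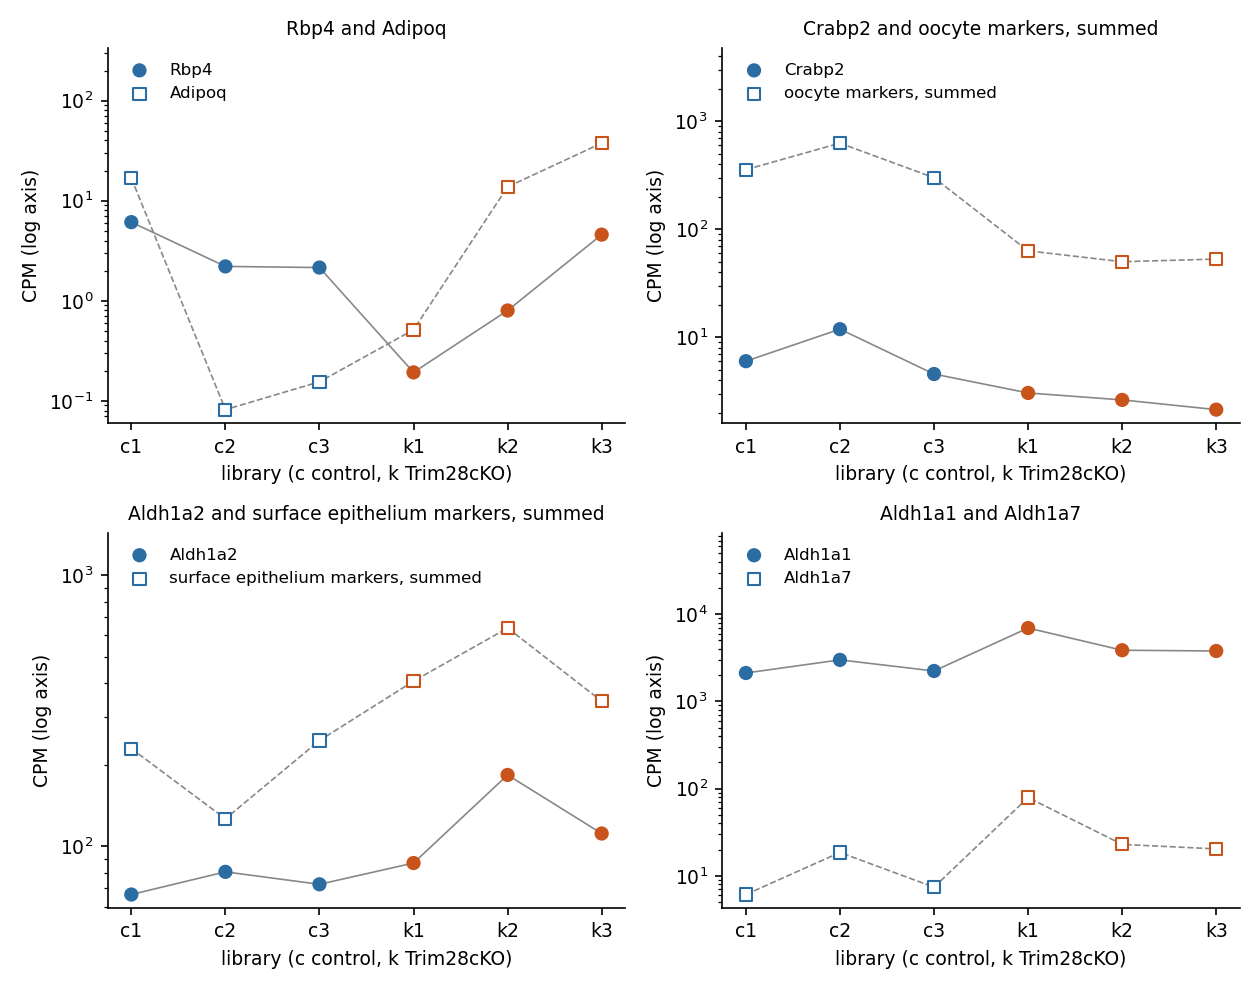
CPM in each library on log axes for a member (filled circles) beside another gene or a summed marker list (open squares), control in blue and *Trim28cKO* in orange. *Rbp4* is highest in each group where *Adipoq* is (16.8 CPM in control replicate 1 and 37.6 CPM in *Trim28cKO* replicate 3), *Crabp2* and the oocyte markers are highest in control replicate 2, *Aldh1a2* and the surface epithelium markers in *Trim28cKO* replicate 2, and *Aldh1a1* and *Aldh1a7* in *Trim28cKO* replicate 1. Among control libraries *Aldh1a2* is highest in replicate 2, where the surface epithelium markers are lowest.

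Ordered by mean deposited signal per kb in control ovaries, the 9 genes ran from *Aldh1a1* (95900 ± 19190, SD, n = 3) through *Dhrs3* (2787 ± 906), *Stra6* (1649 ± 595), *Aldh1a2* (1208 ± 121), *Aldh1a3* (512 ± 125), *Crabp2* (352 ± 185), *Rdh10* (281 ± 29.3) and *Rbp4* (120 ± 78.1) to *Crabp1* (3.11 ± 2.90). The libraries of *Stra6* overlapped those of *Aldh1a2*, those of *Crabp2* overlapped both *Aldh1a3* and *Rdh10*, and all other neighbours in this order were separated. In *Trim28cKO* ovaries the order was *Aldh1a1* (192000 ± 71840), *Dhrs3* (5682 ± 1061), *Stra6* (2343 ± 439), *Aldh1a2* (2112 ± 818), *Aldh1a3* (1953 ± 151), *Rdh10* (410 ± 78.1), *Crabp2* (123 ± 21.7), *Rbp4* (64.5 ± 82.8) and *Crabp1* (17.7 ± 5.55). There *Rdh10* stood above *Crabp2* in every library, and the neighbours that overlapped were *Stra6* and *Aldh1a2*, *Aldh1a2* and *Aldh1a3*, *Crabp2* and *Rbp4*, and *Rbp4* and *Crabp1*. The median transcript length is well below the merged exon length also for *Stra6* (714 against 5829 bases) and *Aldh1a3* (1066 against 4617 bases), which raises their place on this scale.

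For the genes with the highest and the lowest fold change, the most similar patterns over the 6 libraries were sought among 12417 genes with a mean of at least 5 CPM, by the Euclidean distance between log2 CPM values centred on the mean of each gene. A prior count of 2 went into the log2 values, which weighs on *Crabp1* at 0 to 19 counts in a library and leaves its nearest genes uncertain. Nearest to *Crabp1* were *Adamts15* (distance 0.51), *Adam23* (0.76) and *Kcnk1* (0.77). Nearest to *Crabp2* were *Accsl* (0.26), *Oas1c* (0.34) and *Zbed3* (0.49), and each of these fell, with *Zbed3* at 92.2 ± 29.8 CPM in control and 30.4 ± 2.34 CPM in *Trim28cKO* ovaries (n = 3).

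Of 60 other genes of the retinoid pathway in 5 lists, 57 were in the table and 44 were tested, and 11 rose, 2 fell and 31 did not pass, where 20.2% of all tested genes rose and 16.8% fell. Their median log2 fold change was 0.195. Of those that rose, *Cyp26a1* and *Rarres1* reached the filter on low counts only in *Trim28cKO* libraries, so a fall was not open to them. *Dhrs9* reached it in all *Trim28cKO* libraries but not in control replicate 1, so it too was tested only through its *Trim28cKO* libraries. DESeq2 gave 14 higher and 5 lower. The values follow in the order of the pathway, and the shares over all tested genes are the background for each list.

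Of 12 genes of vitamin A uptake, carriage and storage 7 were tested, 1 rose and 0 fell by edgeR, while 2 were lower at an unadjusted p under 0.05 and by DESeq2, and 0 by limma-voom. *Stra6l*, a relative of *Stra6* that encodes another receptor for RBP4, was at 0.641, 1.23 and 1.35 CPM in control and 15.8, 7.47 and 11.9 CPM in *Trim28cKO* ovaries (log2 fold change 3.45 ± 0.40 SE, edgeR adjusted p = 0.000948). All *Trim28cKO* libraries were above the controls, and *Stra6l* kept its call in 13 of 13 alternative fits. *Lrat*, whose product stores retinol as ester, did not pass and was chosen here after its values were seen (77.2 ± 28.8 and 91.2 ± 49.3 CPM, n = 3).

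Of 21 other oxidoreductase genes 14 were tested, 2 rose and 1 fell with edgeR. At an unadjusted p under 0.05, and with DESeq2, 4 were higher and 1 lower, and limma-voom gave 2 and 1. *Dhrs9*, of a dehydrogenase of retinol and of steroids, rose from 0.273 ± 0.0880 to 2.09 ± 0.502 CPM (n = 3, log2 fold change 2.92 ± 0.37 SE). As said above, *Dhrs9* passed the filter on low counts only through its *Trim28cKO* libraries. *Aldh1b1*, of a mitochondrial aldehyde dehydrogenase, rose from 75.9 ± 37.3 to 181 ± 25.3 CPM (log2 fold change 1.26 ± 0.32 SE) and lost its call in 4 alternative fits, without control replicates 1 (1.03) or 3 (1.11), without *Trim28cKO* replicate 1 (1.17) and with no filter on low counts (1.27). *Rdh11*, which encodes a retinal reductase, fell from 75.2 ± 18.9 to 40.0 ± 3.46 CPM (log2 fold change -0.91 ± 0.19 SE, edgeR adjusted p = 0.0103).

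Among the genes of retinoic acid breakdown, *Cyp26a1* was at 0.205, 0.123 and 0.0664 CPM in control and 1.51, 0.913 and 0.690 CPM in *Trim28cKO* ovaries, on 3 to 8 counts in each control library. It rose with a log2 fold change of 2.95 (± 0.53 SE, edgeR adjusted p = 0.00527). *Cyp26b1*, the more abundant of the genes of these enzymes by count, was at 9.23 ± 3.16 and 11.6 ± 4.09 CPM (n = 3) and did not pass (log2 fold change 0.33, edgeR adjusted p = 0.468). *Cyp26c1* had 1 count in the control libraries and 12 in the *Trim28cKO* libraries and was not tested (ratio 10.6, 95% exact counting interval 1.57 to 454). *Fabp5*, a fatty acid binding protein gene whose product can also carry retinoic acid, rose from 21.4 ± 5.87 to 87.2 ± 25.3 CPM (log2 fold change 2.03 ± 0.28 SE, edgeR adjusted p = 0.00193). Of the 5 genes of this list 4 were tested, 2 rose and 0 fell by edgeR, and DESeq2, limma-voom and an unadjusted p under 0.05 also gave 0 lower.

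All 13 receptor and cofactor genes were tested, and 3 rose and 1 fell, where 20.2% of all tested genes rose and 16.8% fell. *Rarb*, a retinoic acid receptor gene that is itself a well known target of the receptors, was at 1.46, 1.55 and 1.66 CPM in control and 12.3, 8.38 and 8.39 CPM in *Trim28cKO* ovaries. The control libraries were nearly equal and every *Trim28cKO* library was several times higher (log2 fold change 2.63 ± 0.24 SE, edgeR adjusted p = 0.000448). *Rxra*, the gene of a partner receptor, rose from 90.7 ± 14.2 to 137 ± 25.8 CPM (n = 3), with a log2 fold change of 0.60 (standard error 0.17), and the corepressor gene *Ncor1* fell from 292 ± 16.5 to 217 ± 23.9 CPM, with a log2 fold change of -0.43 (standard error 0.11). *Rxra* lost its call in 5 alternative fits (0.51 to 0.75 over 13), among them those without control replicates 1 or 3 or *Trim28cKO* replicates 1 or 3. *Ncor1* lost its call in 4 (-0.50 to -0.35 over 13), among them those without control replicates 1 or 2 or *Trim28cKO* replicate 3. *Rara* was the other gene that rose, with a log2 fold change of 0.44, and it falls outside the rule for named genes.

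Of 14 genes known to respond to retinoic acid 13 were in the table and 11 were tested. By edgeR 5 rose and 0 fell, where 20.2% of all tested genes rose and 16.8% fell. The median log2 fold change of the 11 was 0.40. At an unadjusted p under 0.05 there were 6 higher and 1 lower, and 0 were lower by DESeq2 or limma-voom. *Rarres1*, a gene found for its response to retinoic acid in human skin cells, had 1 count in each control library and 280, 530 and 176 counts in the *Trim28cKO* libraries, which is 291 times as many after scaling (95% exact interval from counting 99.2 to 1413). *Cyp26a1* and *Rarb* are also on this list. Of the genes of this list that rose, *Rarres1* and *Cyp26a1* passed the filter only through *Trim28cKO* libraries and could not have fallen. The others that rose, *Tgm2* (a transglutaminase gene, 190 ± 28.6 and 683 ± 114 CPM, log2 fold change 1.85) and *Rec8* (a gene of meiotic cohesin, 5.75 ± 0.939 and 13.1 ± 3.10 CPM, log2 fold change 1.19), fall outside the rule for named genes and were chosen after their values were seen. *Stra8*, which retinoic acid induces in germ cells that enter meiosis, had 1 count over the control libraries and 6 over the *Trim28cKO* libraries and was not tested (ratio 5.31, 95% exact counting interval 0.644 to 244). The counting intervals cover counting error only, not differences between mice.

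**Figure D3:**
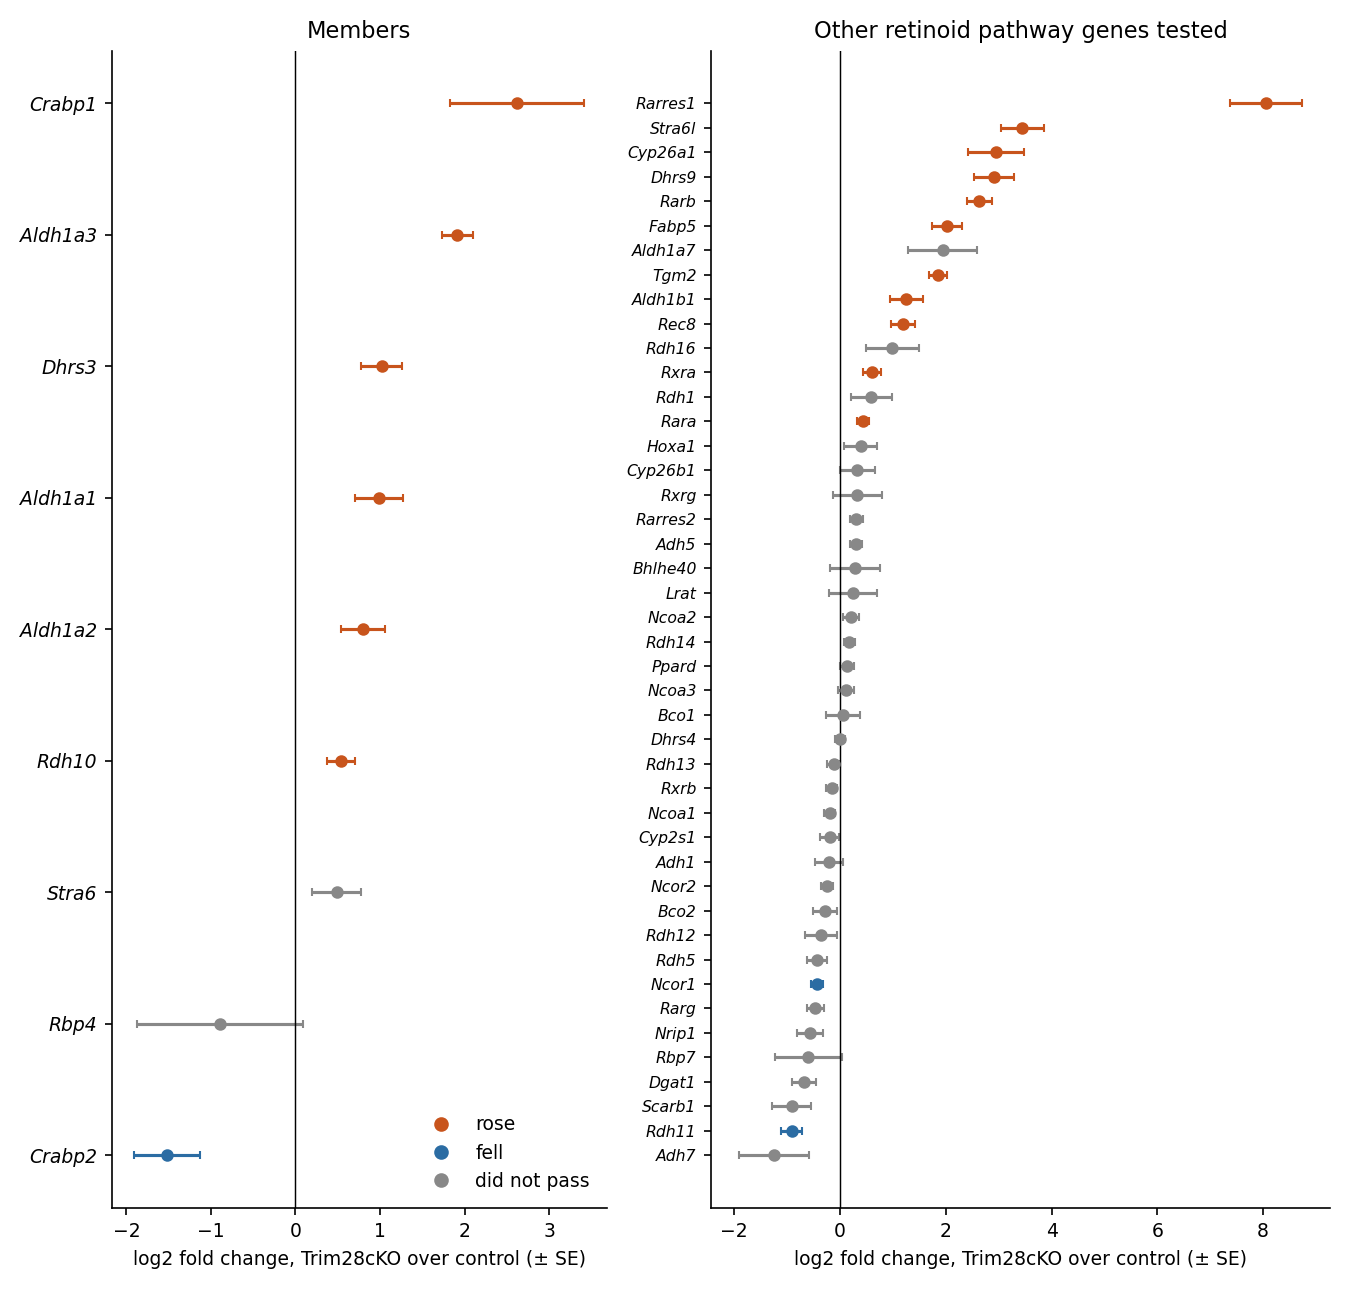
Log2 fold change with its standard error (edgeR, *Trim28cKO* over control, 3 libraries a group) of the 9 genes (left) and of the 44 other retinoid pathway genes tested (right), in orange where a gene rose, blue where it fell and grey where it did not pass. *Rarres1*, *Stra6l*, *Cyp26a1*, *Dhrs9* and *Rarb* lie highest on the right, and *Crabp2* at -1.52 lies lowest on the left.

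The 250 bases before RefSeq transcript starts, several for some genes and some of them inside a gene, were searched for the binding motif of retinoic acid receptors, 2 copies of a 6-base element in the same direction with 1, 2 or 5 bases between, on both strands of RefSeq promoters of GRCm38.p6. Of the 9 genes 6 matched the table, with 13 promoters in all, while *Aldh1a3*, *Rdh10* and *Crabp2* were not matched. None of the 13 promoters held AGGTCA or such a repeat with up to 1 mismatch in each copy. Among all 32851 promoters 14.0% held AGGTCA, and 1.98%, 1.63% and 1.40% held the repeat with 1, 2 and 5 bases between. With the element written as AGGTCA, in a second form as GGGTCA, in another as AGTTCA or in the last as GGTTCA and no mismatch, 4 forms chosen after the first search, the repeat with 5 bases between was found in 29 promoters (0.0883%), and among them were those of *Rarb* and *Cyp26a1*, genes that rose. As the forms were chosen late, these finds are no test of a link to the rise. In the same 4 forms the repeat with 1 base between was found in 54 promoters (0.164%), of the pathway genes only in one of *Bco1*, which did not pass (log2 fold change 0.06), and with 2 bases between in 57 promoters (0.174%), of which 0 were of the pathway. No form was found in the 13 promoters of the 9 genes. The search with up to 1 mismatch does not contain that with the 4 forms, since GGTTCA differs from AGGTCA at 2 bases. Of 60 pathway promoters it found 4, 1 and 2 with 1, 2 and 5 bases between. The 4 were of *Rxra*, which rose, *Adh4*, not tested, and *Bco1* and *Bco2* (log2 fold change -0.28), neither of which passed. The others were of *Rbp2*, not tested, and of *Rarb* and *Cyp26a1*. In *Rarb* this match lay elsewhere, 83 to 67 bases before the start, and is not in capitals below. The *Rarb* start lies inside the gene as the files place it (chromosome 14, 16430839 to 16819156, minus strand), while the *Cyp26a1* start is that of the gene. Their last 101 bases before the start are shown, in the direction of the gene, with both copies of the element in capitals, 53 to 37 bases before this transcript start of *Rarb* (chr14:16575477-16575577, minus strand) and 32 to 16 bases before the start of *Cyp26a1* (chr19:37697707-37697807, plus strand), where the element reads on the opposite strand as TGAACT.
Rarb: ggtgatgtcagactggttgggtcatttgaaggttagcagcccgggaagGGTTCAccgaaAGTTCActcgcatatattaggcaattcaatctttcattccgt
Cyp26a1: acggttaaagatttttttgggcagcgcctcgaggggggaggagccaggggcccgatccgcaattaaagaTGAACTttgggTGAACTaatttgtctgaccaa

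A match is a description of these letters, not of binding, and a promoter without a match may have the element elsewhere.

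Over 13 alternative fits (11 for *Crabp1*) no fold change of the 9 genes turned its direction, and *Aldh1a3* was the only one of the 7 changed genes that kept its call in every fit. The number of the 9 genes that rose was 1 without control replicate 1, 2 without control replicate 3 and 3 without *Trim28cKO* replicate 2, where 6 rose with all libraries. The number over all tested genes was 2801, 3042 and 3230 in the same fits, against 3832.

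**Figure D4:**
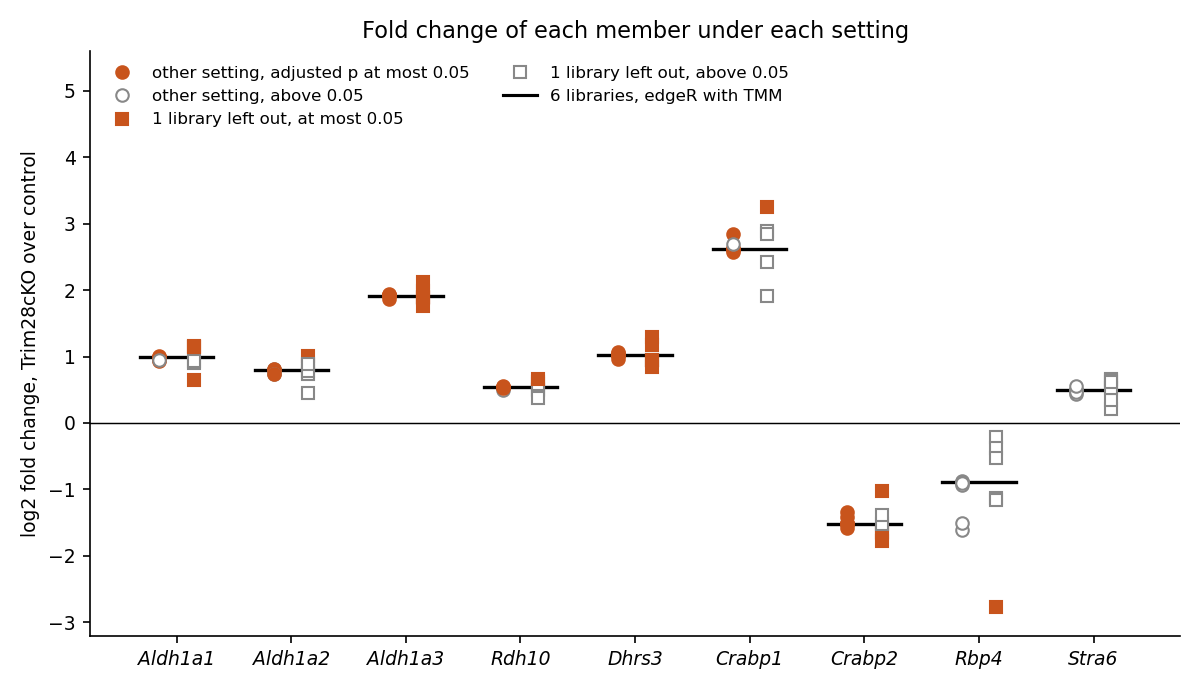
Log2 fold change (*Trim28cKO* over control) of each gene under each setting, with the value from all 6 libraries as a black line, fits with another scaling, filter, tool or block as circles and fits with 1 library left out as squares, filled where the adjusted p was at most 0.05. The symbols of *Aldh1a3* are filled throughout (1.76 to 2.12), *Rbp4* spreads from -2.76 to -0.21, and no gene crosses 0.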

How the data were processed

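RNA of whole ovaries was made into strand-marked, polyadenylated libraries from 600 ng of total RNA and sequenced as single-end 50-base reads. Reads were mapped by the authors to mm10 (STAR 2.5.3a), and uniquely aligned reads were counted by gene of Ensembl 92 in union mode (htseq-count 0.6.1p1) and deposited as raw counts. Whether the counting used strand was not stated. bcl2fastq 2.17.1.14 is named in the submitters' processing notes. A deposited signal, in which size-factor scaled counts were divided by the median length in kb of a gene's transcripts, was used here only to compare levels between genes. Deposited size-factor scaled counts and the columns of log2 fold changes and p-values of the authors' own comparison (DESeq2 1.16.1, Wald test) were not used.

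Of 34461 genes 18959 passed filterByExpr (minimum count 10, minimum total 15) and went, after TMM scaling, into the quasi-likelihood test (robust glmQLFit, then glmQLFTest) of edgeR 4.0.16 under R 4.3.3, with Benjamini-Hochberg adjustment. The standard error is the log2 fold change divided by the square root of F. Total counts ranged from 23615580 to 48508461, with a median of 41226315, so *Crabp1* rests on few reads and *Aldh1a1* on many. No 2 replicate libraries were so alike that they could be one library (chi-square 29.4 to 89.4 per degree of freedom). The labels give no batch. Where 1 library left a group, the test pooled the spread of both groups.

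The 9 genes, the 5 pathway lists, the 12 marker lists and the tests were chosen with earlier results of these data known. Named were the 9 genes, *Trim28*, *Aldh1a7*, the *Cyp26* genes, *Stra8*, up to 2 highest and 2 lowest called genes of each pathway list, and the 3 genes nearest to the member with the highest and with the lowest fold change. Others were chosen after their values were seen. An item of the pathway lists is not reported here and stands in none of their counts. Marker lists were used by count and summed CPM. Of the lists not described in the results, theca and Leydig cell markers had 3 higher and 4 lower of 8 tested, stroma 2 and 0 of 8, pericyte and smooth muscle 1 and 4 of 8, endothelium 1 and 0 of 8, oviduct epithelium 0 and 0 of 7 (1 lower at an unadjusted p under 0.05 and by DESeq2, 0 by limma-voom), and male germ cell 0 and 1 of 6. The alternatives tried were size factors of DESeq2 in the edgeR fit, library size alone, no filter, 1 CPM in 3 libraries, DESeq2 1.42.0, limma-voom (limma 3.58.1), the replicate number as a block, each library left out, a log2 fold change beyond 1 and an adjusted p of 0.01. The merged exon length (GENCODE M21) and the 4 element forms were added after seeing the data. Scripts were tested on simulated counts. Permutation tests and figures used scipy 1.17.1, matplotlib 3.10.9, pandas 2.3.3 and numpy 2.4.6 in Python 3.11.15, and coding sequences were aligned with Biopython 1.88.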

Additional observations from a re-analysis of the deposited data

How the results depend on the processing

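*Aldh1a3* (1.76 to 2.12) kept its call in 13 fits, and *Stra6* (0.21 to 0.65) passed in none. By other settings, *Aldh1a2* lost its call with library size alone (0.75), no filter (0.81) and limma-voom (0.74), and *Rdh10* with library size alone (0.49). With a fold limit of 1 on the log2 scale, 3 of the 9 genes were higher, and at an adjusted p of 0.01 there were 1 higher and 0 lower. Pathway genes lower were 4 with library size alone, 5 with DESeq2, 0 with the fold limit and 0 at 0.01. All genes higher were 2238 at 0.01, and all genes lower were 1523 with the fold limit and 1528 at 0.01. The cause of these differences was not tested beyond the limits themselves.

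With 1 library left out, the genes higher among the 9 numbered 1 to 5 and lower 0 to 1. Pathway genes lower numbered 1 to 3 and all genes lower 2039 to 2753. Log2 fold changes ranged from 0.64 to 1.157 for *Aldh1a1*, 0.45 to 1.01 for *Aldh1a2*, 0.38 to 0.65 for *Rdh10*, 0.84 to 1.30 for *Dhrs3*, 1.92 to 3.26 for *Crabp1*, -1.78 to -1.03 for *Crabp2* and -2.76 to -0.21 for *Rbp4*. The difference in the share of *Aldh1a2* ranged from -0.387 to 0.324 points, above 0 at 0.0157 points without control replicate 3 and at 0.324 points without *Trim28cKO* replicate 1. *Crabp1* was not tested without *Trim28cKO* replicate 3 or with the filter of 1 CPM in 3 libraries.

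Same-numbered control and *Trim28cKO* libraries did not deviate together (correlations -0.0701, 0.0595 and -0.168), so the numbers were not read as pairs. With the replicate number as a block *Aldh1a1* (0.94, adjusted p = 0.0662 by edgeR) and *Crabp1* (2.69, adjusted p = 0.0783 by edgeR) did not pass, 4 of the 9 genes were higher and 1 lower, and 3162 and 2339 of all genes were higher and lower. Depth limits *Crabp1* most, with at most 19 counts in a library.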
